A study of Schizosaccharomyces pombe with 16 samples.

Results

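The RNA of *rrp6Δ* fission yeast was compared with that of wild type on both strands of the genome. The 2 arrays titled rrp6Δ, of 16 in the series, and all 174063 numbered genome probes on each of them were taken, whatever their signal. *rrp6Δ* (strain p74) and its wild-type control (strain p20) were grown in YEA medium at 30 °C, and each genotype was represented by 1 strain. The paper lists an *otr1R(SphI)::ura4+* insertion for p20 and not for p74. The part of this difference in the ratios was not tested. rRNA-depleted RNA was reverse transcribed with oligo(dT) and random hexamers, and the *rrp6Δ* cDNA carried Cy5 and the wild-type cDNA Cy3 on both arrays, which the submitters describe as biological replicates. The other 14 arrays entered the statistical model. They held *red1Δ*, *pab2Δ*, *cid14Δ*, *iss10Δ*, *sen1Δ* (2 arrays each) and *rmn1Δ* (1 array). Each of these was grown at 30 °C and hybridized against a control labelled wildtype. *mmi1Δ mei4-P572*, also grown at 30 °C, was hybridized against *mei4-P572* (1 array). *mtl1-17* was hybridized against *mtl1-flag* (2 arrays), and these strains were grown at 23 °C and then for 4 h at 37 °C. No other mutant had p20 as its control strain. The dyes were never swapped. A preference of a probe for Cy5 or Cy3 is therefore part of each ratio to wild type, and drops out only when mutants are subtracted from each other.

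Rrp6 is a 3′–5′ exonuclease of the nuclear exosome, the complex that trims and degrades RNA in the nucleus. Its substrates include cryptic unstable transcripts, which start near promoters, run antisense to genes or lie downstream of them, and in fission yeast also mRNAs of meiotic genes that are transcribed in growing cells. Red1 and Mtl1 belong to the MTREC complex, which hands RNA over to the exosome, and Cid14 is the poly(A) polymerase of the TRAMP complex. Pab2 is the nuclear poly(A)-binding protein. In steady-state RNA, a higher level can come from slower decay or from more transcription, and the arrays do not tell them apart.

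Probes alternated between the strands, with neighbours 40 bp apart over the densely tiled part (probes 1 to 147054) and 250 bp apart over the sparse part, so that probes of 1 strand were 80 or 500 bp apart. Set against annotated gene strands, odd-numbered probes of the dense part read the forward strand in 86.6% of windows of chromosome II and 78.0% of chromosome III, and in the sparse part in 8.11% of chromosome III and 13.9% of chromosome I. Each part was given the strand of its majority. The windows that ran the other way were not resolved, and every strand, 5′ end, upstream and downstream label below carries this limit. Gene names and probe sequences were not used here, and RNAs are named by their first and last probe. The wild-type channel was above background for 72.0% and 62.0% of the probes on arrays 1 and 2, and the *rrp6Δ* channel for 84.7% and 73.9%. No probe was saturated. Probes printed 6 times gave a median SD of 0.13 and 0.15 (log2 ratio, 238 and 200 probes above background) within the arrays. Array 1 was alone on its slide and was read with another version of the extraction software than the other 15 arrays, whereas array 2 shared its slide with arrays of *red1Δ* and *pab2Δ*.

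The deleted gene was looked for first. Relative to the median of the other mutants, the lowest run of probes in *rrp6Δ* was formed by 4 even-numbered probes, 154020 to 154026, of chromosome I, at -5.73 (log2). Their log2 ratio was -6.16 on array 1 and -5.07 on array 2, against a median of 0.12 in the other mutants, and the next lowest run was at -3.45 relative to the other mutants. The *rrp6* gene lies at this place when the probe numbers are laid on the annotated chromosome, and in all 8 deletion strains of the series the lowest run fell within 1 probe of the place of the deleted gene. The mutant channel was not above background at 3 of the 4 probes on either array. At the remaining probe, 154024, it was above background on both, with log2 ratios of -3.00 and -1.13.

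Sense RNAs were defined without gene models, as runs of at least 6 probes of a strand (3 in the sparse part) whose control signal, averaged over all arrays, exceeded a threshold of 7.90 on the log2 scale. A run of this kind, called a sense unit here, can hold more than 1 gene or a part of one. There were 4071, of which 2541 lay in the dense part with a median length of 1600 bp. Each array was centred on the mean of the dense sense units, which had been at -0.20 and -0.28. As a consequence the median of all probes moved from 0 to 0.20 on array 1 and 0.28 on array 2, and every change below is relative to the average sense RNA.

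Sense RNAs changed in both directions in *rrp6Δ*, mostly by less than 2-fold. Of the 4071 units, 986 were higher (24.2%) and 833 were lower (20.5%) at an adjusted p under 0.05 (limma, 2 *rrp6Δ* arrays within a fit of all 16). In the sparse part 30.1% were higher and 15% lower. All but 1 of the higher units and all 833 lower units had the same sign on both arrays. As these arrays also made the calls, this is a description. The 1 exception lay in the sparse part, where 1529 of 1530 units had a value on both arrays. The median rise among the higher units was 1.64-fold, and the median fall among the lower ones 1.55-fold. At least 2-fold changes were found in 274 higher and 152 lower units, and at least 4-fold changes in 55 and 21. The split depended on the centring: with the median of all probes at 0, 595 units were higher and 1518 lower. Without array 1 there were 711 higher and 498 lower units, and without array 2 there were 512 and 359. The 2 arrays differed by a median of 0.21 (log2) in the dense units and of 0.18 in the sparse ones.

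**Figure D1:**
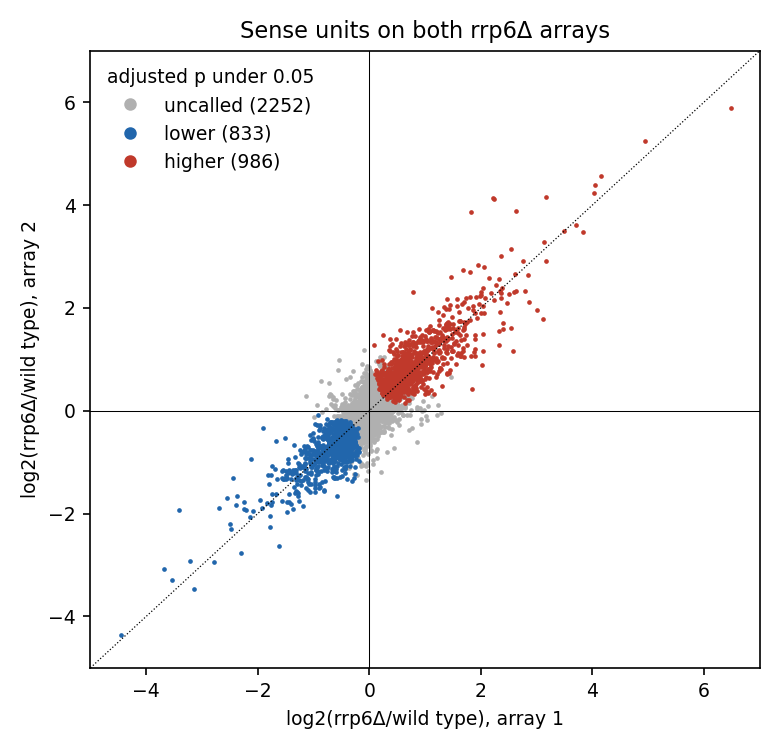
Log2 ratio of *rrp6Δ* to wild type on array 1 (x axis) and array 2 (y axis) for each sense unit, with 986 units higher (red), 833 lower (blue) and the rest uncalled (grey) at an adjusted p under 0.05 (limma). The dotted line marks equal values on both arrays, and the called units lie along it, with the largest rise above 5 on both axes.

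The 8 sense units with the largest rises, all with every probe above background in *rrp6Δ* on at least 1 array, rose from 11.2-fold to 72.9-fold. With normexp background correction and the array median at 0, their log2 ratios were 2.91 to 5.31 in place of 3.49 to 6.19. The largest was an RNA of 640 bp on the reverse strand (probes 115040 to 115054). Its mean processed signal went from 435 in wild type to 33808 in *rrp6Δ* on array 1, and from 439 to 21522 on array 2. The log2 ratio was 6.19 ± 0.22 (SE, n = 2 arrays, adjusted p = 5.7e-09, limma), and in the other mutants it lay between -0.66 in *rmn1Δ* and 1.66 in *mmi1Δ mei4-P572*. The *rrp6Δ* signals of both arrays lay above both wild-type signals. Signals here and below are geometric means over the probes before the centring, whereas log2 ratios and folds are centred.

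The second was a unit of 720 bp on the reverse strand (probes 107330 to 107346), with signals of 653 in wild type and 17599 in *rrp6Δ* on array 1. On array 2 they were 536 and 16714. Its log2 ratio was 5.10 ± 0.25 (SE, n = 2, adjusted p = 8.4e-08, limma), and no other mutant exceeded 1.42. In both units the *rrp6Δ* signals of both arrays lay far above both wild-type signals, and no other mutant came near *rrp6Δ*.

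The next 3 units were high in *red1Δ* too. The unit of probes 63905 to 63931 (1120 bp, forward strand) went from 331 to 5134 on array 1 and from 173 to 3367 on array 2. Its log2 ratios after the centring were 4.15 and 4.56, against a mean of 4.62 in *red1Δ*. Of the other mutants besides *red1Δ*, none exceeded 1.86 there. The unit of probes 23005 to 23025 had 4.02 and 4.24, against 4.01 in *red1Δ*, 3.28 in *mmi1Δ mei4-P572* and at most 2.08 in the rest. The unit of probes 8980 to 8996 had 4.05 and 4.38. It stood at 5.33 in *red1Δ*, 3.82 in *mmi1Δ mei4-P572*, 3.61 in *pab2Δ* and at most 2.04 in the rest. For each of these 3, the difference between *rrp6Δ* and *red1Δ* did not pass the test, with adjusted p between 0.143 and 0.721 (limma contrast). That does not show that the strains were alike, as the SE of the *rrp6Δ* ratio reached 0.37 among them.

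The other 3 were the units of probes 173794 to 173804 (log2 ratio 3.66 ± 0.16), 102155 to 102165 (3.66 ± 0.13) and 2118 to 2140 (3.49 ± 0.20, SE, n = 2 each). The first of them, in the sparse part, went from 1103 to 12502 on array 1 and from 426 to 4309 on array 2. It stood at 0.02 in *red1Δ*, and no other mutant exceeded 0.98. The last, of 960 bp on the reverse strand, had the same log2 ratio of 3.49 on both arrays and stood at 2.96 in *red1Δ*.

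The 8 largest falls ranged from 5.24-fold to 21.3-fold as processed. Their size depended on the background correction: the log2 ratios were -4.41 to -2.39 as processed and -2.93 to -1.75 with normexp and loess. Of these falls, 5 lay close together between probes 2523 and 3478 of the dense part, on both strands. The unit of probes 2681 to 2729 (2000 bp, forward strand) fell from a signal of 712 to 28.3 on array 1 and from 799 to 31.9 on array 2, with a log2 ratio of -4.41 ± 0.38 (SE, n = 2, adjusted p = 5.8e-06, limma). In *rrp6Δ*, 13 of its 25 probes were not well above background on either array. With these raised to the lowest signal above background on each array, the fall was 13.6-fold. With normexp and loess its log2 ratio was -2.69, and the unit of probes 2523 to 2579 then had the largest fall, at -2.93. The neighbouring units of probes 2523 to 2579 and 2580 to 2636, 2320 bp each and on opposite strands, stood at -3.42 ± 0.30 and -3.06 ± 0.32. The ratio of probes 2681 to 2729 was below 0 in all 8 other mutants, each measured against its own control strain. It was -4.57 in *red1Δ*, -3.96 in *pab2Δ*, -4.00 in *mmi1Δ mei4-P572* and -0.18 in *sen1Δ*.

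The remaining 3 of the falls lay elsewhere. The unit of probes 95307 to 95319 (560 bp, forward strand) fell from 784 to 99.6 on array 1 and from 305 to 32.5 on array 2. In *rrp6Δ*, all of its probes were above background on array 1 and 57.1% on array 2. It stood at -1.51 in *red1Δ* and, in the other direction, at 1.40 in *pab2Δ*. The unit of probes 44029 to 44055 had log2 ratios of -3.42 and -1.94, the widest gap between the arrays among the named units. In the unit of probes 43698 to 43708 the arrays gave -2.48 and -2.29, and *red1Δ* -3.21.

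**Figure D2:**
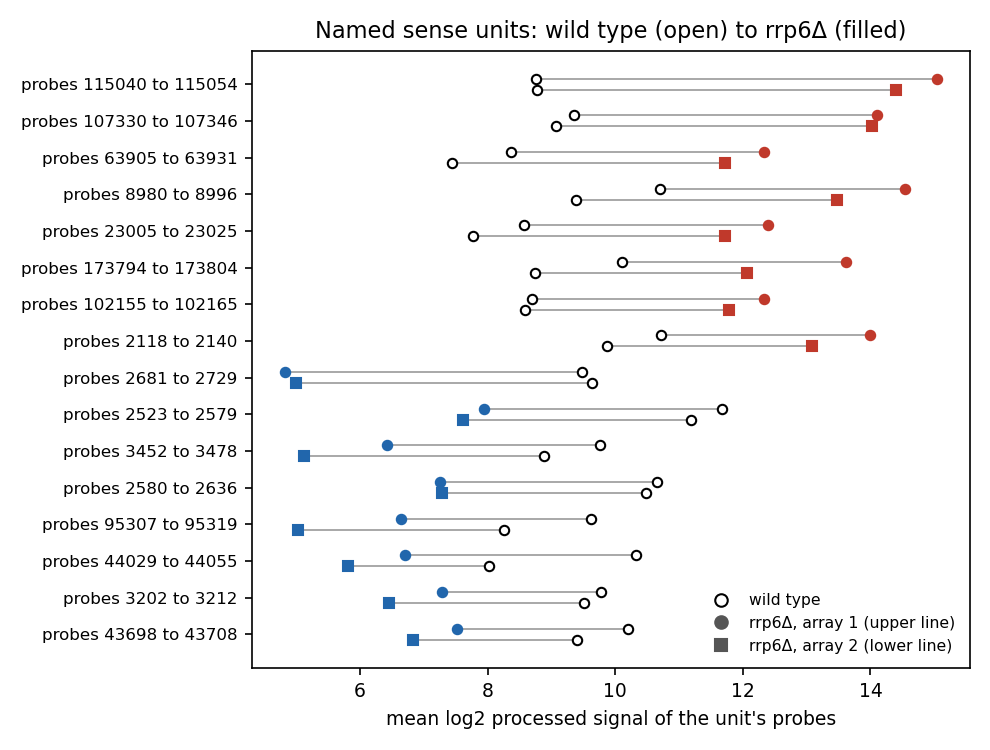
Mean log2 processed signal (x axis) of the 8 sense units with the largest rise (red) and the 8 with the largest fall (blue), in wild type (open circles) and *rrp6Δ* (filled), with array 1 (filled circles) above array 2 (filled squares) in each row. In every row the *rrp6Δ* points of both arrays lie on the same side of both wild-type points.

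Rises were more frequent among dim than among bright sense RNAs. The 2541 dense units (20.7% higher, 23.7% lower) were ranked by the wild-type signal of the 11 other arrays with a wild-type control, which takes no part in the ratio. In the dimmest of 4 equal groups, 172 of 636 units were higher (27%), in the next 2 groups 23.0% and 19.4%, and in the brightest 84 of 635 (13.2%). This order of the 4 groups was the same under each of the 9 other scalings, summaries and blocks tried. Among these, no centring and the median of all probes at 0 gave the same values. The share of lower units did not follow such an order, with 20.8%, 26.1%, 21.1% and 26.9% from dim to bright. Large changes, however, were more frequent among dim units in both directions. Called falls of at least 2-fold numbered 46, 38, 22 and 21 from dim to bright, and such rises 75, 42, 18 and 24. The median SE of a unit was 0.17 in the dimmest and 0.15 in the brightest group. The median log2 ratio of the dimmest group was above that of the brightest by 0.18 on array 1 and 0.23 on array 2 (0.20 ± 0.034, SD, n = 2). The interquartile range within the dimmest group was -0.36 to 0.56. The difference was 0.61 with normexp and the array median at 0, and 0.35 with a unit threshold lower by 1 log2 unit.

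By length, both the shortest and the longest sense RNAs rose more often than those between. In the shortest of 4 equal groups (480 to 960 bp), 26.1% of 636 units were higher and 24.2% lower. In the 2 groups between, 17.0% and 13.2% were higher and 28.7% lower in each. In the longest group (2400 to 14240 bp), 167 of 635 units were higher (26.3%) and 85 lower (13.4%), and only 6 of these fell at least 2-fold. The short units that were called changed by more in both directions. Those that rose had a median log2 ratio of 0.96, against 0.66 for the long ones. Those that fell had -0.80 against -0.47, and 49 of the short units fell at least 2-fold. The shortest and longest groups exceeded both groups between in the share of higher units under each of the 9 alternatives. The median of the shortest minus that of the longest group was -0.02 on array 1 and -0.14 on array 2, which is no larger than the spread between the arrays (-0.083 ± 0.083, SD, n = 2). The SE of a unit was larger in the short units, with a median of 0.17 against 0.14 in the long ones.

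Length and signal were related, as 360 of the 636 dimmest units were also in the shortest group. These short and dim RNAs were higher in 31.4% of cases and lower in 20.3%. Short units in the brightest group (103 units) were higher in 11.7% and lower in 28.2%. The longest units, in contrast, were higher in 22.3% to 30.3% in every group of signal. Among the units of the shortest group, the dimmest exceeded the brightest by 0.31 on array 1 and 0.41 on array 2, whereas among the longest the difference was 0.21 and 0.04.

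**Figure D3:**
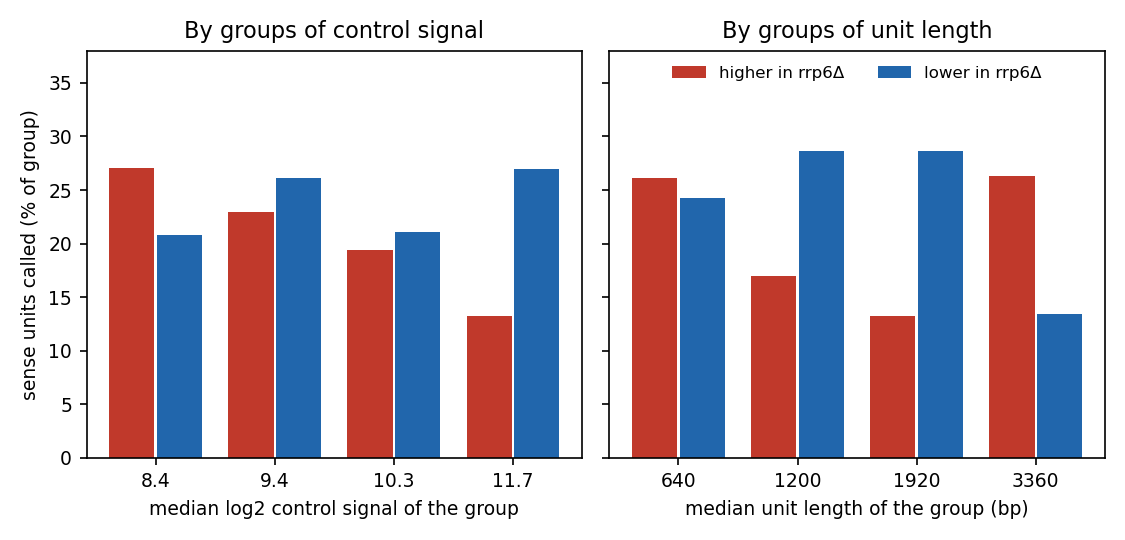
Share of dense sense units (y axis, %) called higher (red) or lower (blue) in *rrp6Δ*, in 4 groups of wild-type signal (left, labelled with the median log2 signal) and of unit length (right, labelled with the median length in bp). The share of higher units falls from 27% to 13.2% with signal and is highest at both ends of the length range, with 26.1% and 26.3%.

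RNA outside the sense units was read with fixed windows of 8 probes of a strand (4 in the sparse part), so that no ratio chose them. Of 25132 windows, 10373 were higher (41.3%) and 3287 were lower (13.1%) in *rrp6Δ* (adjusted p under 0.05, limma). With the median of all probes at 0, 7697 windows were higher and 5968 lower. The software had set the ratio to 0 for 6.40% and 11.7% of the probes, and the centring moved these to 0.20 and 0.28. Without that setting to 0, 9661 windows were higher and 4105 lower. With those probes left out, 9540 of 24849 windows were higher and 3275 lower. In the dense part the share of higher windows was 25.4% in sense units, 45.9% on the strand opposite to them and 57.1% outside both. The shares of lower windows were 19.8%, 12.3% and 8.22%. At least 2-fold rises on both arrays were found in 5.75% of the sense, 21.1% of the antisense and 27.4% of the outside windows of the dense part. In 1278 further dense windows no class held most of the probes. Of these, 50.5% were higher, and 19.1% were at least 2-fold higher on both arrays. Over all windows of the dense and sparse parts together, at least 2-fold rises were found in 15.9% and falls in 1.48%. Outside the units, signals were near background: the wild-type channel was above it for 50.2% and 37.7% of the outside probes on the 2 arrays, and the *rrp6Δ* channel for 71.7% and 56.7%.

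The RNA next to a sense unit did not always follow it. Over the 480 bp downstream on the same strand, the median log2 ratio was 1.15 and 1.25 (arrays 1 and 2) beside higher units, 0.66 and 0.79 beside uncalled units and 0.28 and 0.39 beside lower units. Where the unit itself was at -0.60 and -0.73, the downstream RNA thus lay between it and the dense windows outside units, whose medians were 0.60 and 0.55. Upstream on the same strand the medians were 0.76 and 0.73 for higher units, 0.47 and 0.46 for uncalled and 0.29 and 0.27 for lower ones. Upstream on the opposite strand, in contrast, higher, uncalled and lower units lay close together, at 0.72, 0.81 and 0.71 on array 1 and 0.63, 0.75 and 0.65 on array 2. On the strand opposite to the unit itself they were 0.30, 0.33 and 0.30 on array 1, but 0.39, 0.47 and 0.53 on array 2. Flanks can overlap the flanks of neighbouring units, and these medians are a description.

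The extent of the rising RNA was then followed along each strand. A rising run was a stretch of at least 6 probes of a strand (3 in the sparse part) whose running median of the mean log2 ratio of both arrays was at least 1. As the ratios chose these runs, their own ratios are a description. There were 1575 such runs in the dense part and 833 in the sparse part, and they covered 15.7% and 15% of the probes. Their number, 2408 in all, was 1078 with normexp and loess and 1097 with normexp and the array median at 0. In the dense part the median run was 800 bp long (interquartile range 560 to 1440 bp), 621 runs (39.4%) reached 1 kb and 209 reached 2 kb. The summed length was 1849 kb of the 2 strands. The lowest mean log2 ratio of a run was 0.77, and 250 further runs appeared when the threshold was set at 0.9.

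By position, 721 of the dense runs were mostly antisense to sense units, 558 were mostly outside units, 214 were mostly within a sense unit and 82 were mixed. Antisense runs were longer than those outside, with medians of 960 and 720 bp, and 46.6% of them against 25.3% reached 1 kb. The median log2 ratios on the 2 arrays were 1.74 and 1.73 in antisense runs, 2.07 and 1.84 in outside runs and 1.33 and 1.52 in sense runs. Among the 132 runs of 31 probes or more, 57.6% were antisense, 20.5% sense and 13.6% outside. In the median antisense run, 53.3% and 31.3% of the probes were above background in wild type on the 2 arrays, against 100% and 87.5% in *rrp6Δ*. In 24 dense runs no probe was above background in wild type on either array.

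**Figure D4:**
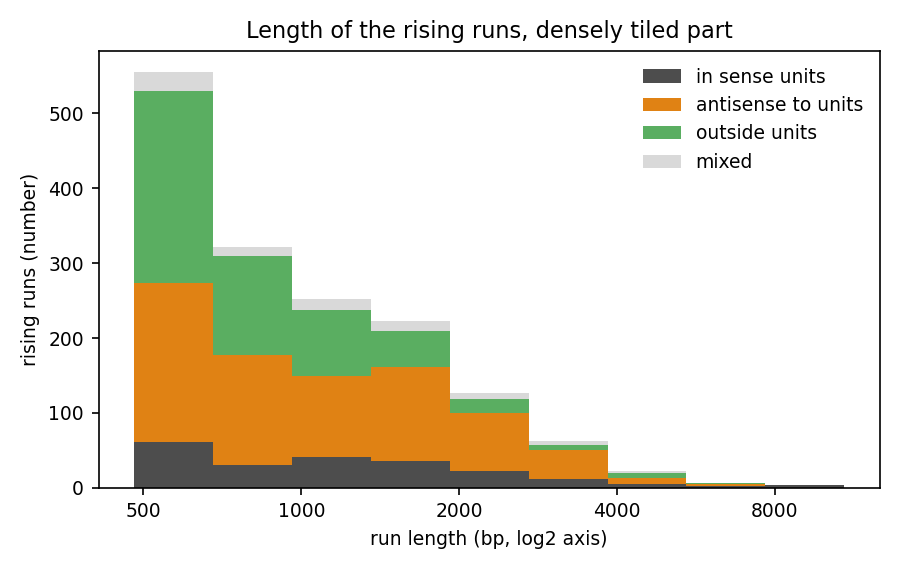
Number of rising runs of the dense part (y axis) by length in bp (x axis, log2 scale), stacked by the position of most of their probes relative to the sense units. The runs thin out from the minimum of 480 bp to the longest at 9600 bp, and runs outside units (green) are concentrated at the short end.

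The runs were found again on the array that was not used to call them. Runs called on array 1 alone had a ratio of at least 2-fold on array 2 in 89.0% of 1633 cases, against 21.0% of all dense windows there. Runs called on array 2 reached it on array 1 in 80.5% of 1613 cases, against 19.7% of the windows. Nearly all were above 0 on the other array, with 99.6% and 99.4%. Of the probes in dense rising runs, 16.1% lay next to a rising probe of the other strand, close to the 15.7% of all dense probes that lay in rising runs.

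The 5′ ends of the rising runs were not spread evenly. Each 5′ end and each position was counted only at the first place that held for it. The order was within a unit of its strand, downstream of one, opposite to a unit, divergent from a unit, and elsewhere. Of the 1575 dense runs, 414 (26.3%) started within 640 bp downstream of a sense unit of their own strand, a place that held 11.9% of all dense probe positions. Another 230 (14.6%) started within 640 bp of the 5′ end of a unit of the other strand and ran away from it, against 8% of the positions. These divergent runs had median log2 ratios of 2.11 and 1.88 and a median length of 720 bp, and the downstream runs 1.88 and 1.90 and 960 bp. A start opposite to the body of a unit, and not within or downstream of one on its own strand, was seen in 409 runs (26%, positions 27.9%). In 358 runs (22.7%, positions 41.1%) the start was within a unit of the same strand, and 164 runs (10.4%) started elsewhere.

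**Figure D5:**
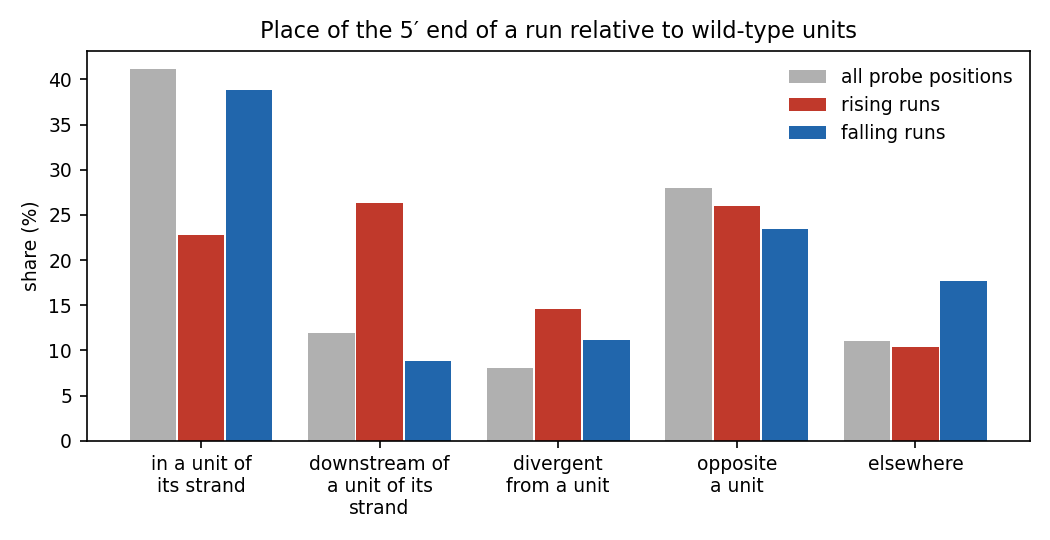
Share (y axis, %) of all dense probe positions (grey), of the 1575 rising runs (red) and of the 350 falling runs (blue) by the place of the position or of the 5′ end of the run relative to the wild-type sense units. Each was counted only at the first place that held, own-strand places first, then opposite, then divergent. Rising runs exceed the positions downstream of units (26.3% against 11.9%) and divergent from units (14.6% against 8%).

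Among the 132 dense rising runs of 31 probes or more, most were antisense (57.6%, against 20.5% sense). The longest of all and the next 2, however, lay mostly in sense units. The longest, probes 17713 to 17951 on the forward strand, covered 9.6 kb within units, with log2 ratios of 2.88 and 1.90 on the 2 arrays. It was bright in wild type, at mean signals of 19600 and 23858, and reached 125459 and 73195 in *rrp6Δ*. The ratios of the other mutants ranged there from -0.71 in *cid14Δ* to 1.19 in *mmi1Δ mei4-P572*. The next 2 runs were 8.24 kb each. The first of them (probes 90419 to 90623) had ratios of 1.84 and 2.31 and lay at 0 within rounding in *red1Δ*, with 0.65 in *sen1Δ* as the highest of the other mutants. The other (probes 133346 to 133550) had 1.33 and 1.82, and 0.91 in *red1Δ*.

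Of the other 5 named runs, the longest antisense run (probes 75408 to 75576, 6.8 kb) had 91.8% of its probes opposite to units. Its mean signal was 142 in wild type and 550 in *rrp6Δ* on array 1, and 73.0 and 281 on array 2. It also stood at 1.42 in *red1Δ* and 1.12 in *pab2Δ*. The run of probes 112922 to 113084 (6.56 kb) was the longest outside units, with 1.79 and 2.34 in *rrp6Δ*, 0.19 in *red1Δ*, -0.61 in *pab2Δ* and -1.07 in *mtl1-17*. The run of probes 9196 to 9352 (6.32 kb) crossed units of both strands, at 2.63 and 2.65 in *rrp6Δ* and 2.12 in *red1Δ*. The remaining runs, probes 23145 to 23345 and 6328 to 6494, had *rrp6Δ* ratios between 1.16 and 2.18.

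Falling runs, defined in the same way at a ratio of -1, were fewer and shorter. The comparison is not an even one. The centring had moved the median of all probes up by 0.20 and 0.28. With no centring there were 1846 rising runs in both parts in place of 2408, and falling runs were not counted. A fall can also be missed where wild type is near background. Of the dense antisense probes, 54.9% and 35.9% were above it in wild type. In the dense part there were 350, covering 2.73% of the probes with a median length of 720 bp. Of these, 192 were mostly within sense units, 83 antisense and 65 outside. The first 10000 probes of the array, which hold the 5 neighbouring units described above, had 8.77% of their probes in falling runs, and the other stretches of this size between 0.83% and 5.16%. Rising runs took from 10.8% to 20.3% of the probes of a stretch.

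The same features were read in the other mutants, each against its own control. Over the 1575 dense rising runs, the median log2 ratio was 1.81 and 1.73 on the *rrp6Δ* arrays. It was 0.97 and 1.08 on the *red1Δ* arrays, 0.69 and 0.68 in *pab2Δ*, 0.72 and 0.66 in *mtl1-17* and 0.38 and 0.32 in *cid14Δ*. The arrays of *iss10Δ*, *rmn1Δ*, *mmi1Δ mei4-P572* and *sen1Δ* lay between -0.0021 and 0.27. As the runs were chosen for their *rrp6Δ* ratio, its higher value is no result. On the slide that array 2 shared with 1 array of *red1Δ* and 1 of *pab2Δ*, the medians were 1.73, 1.08 and 0.68, close to those on other slides. Such medians do not show how slide acts on single units. With slide as a random block, the correlation within a slide was 0.51 for units and 0.33 for windows. That fit gave 1049 higher and 895 lower units. The contrasts between mutants took no account of slide.

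In the fit of all arrays, *rrp6Δ* minus the mean of the other 8 mutants was higher in 658 sense units (16.2%) and lower in 503 (12.4%; adjusted p under 0.05, limma contrast). Against *red1Δ* alone, 454 (11.2%) were higher and 330 (8.11%) lower. The named units were chosen for the same *rrp6Δ* ratios, so that their own differences are a description. They were between 2.36 and 5.88 for the 8 rises. Of the falls, the least distinct from the other mutants was the unit of probes 2580 to 2636, at -0.96 (adjusted p = 0.0571).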

How the data were processed

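The members and the definitions of units, windows and runs were chosen with earlier results of these data known. The authors hybridized the samples to an Agilent custom array and extracted the spots with Agilent Feature Extraction 10.7.3.1 (10.7.1.1 for *rrp6Δ* array 1, per the file headers), which corrected background and spatial trends and balanced the dyes by lowess. The deposited log10 ratio of the processed signals was converted to log2. The software had set it to 0 for 6.40% and 11.7% of the probes. The deposited intensities (processed, median and background signals) gave levels and normexp alternatives. The log2 values of the deposited series table served as an alternative. Control spots and outlier-flagged spots (15 and 5 on the *rrp6Δ* arrays) were left out, and each array was centred on the mean of the dense sense units. Units came from Otsu's threshold and a running median of 5 probes (3 in the sparse part).

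Means over the probes of a unit or window were fitted with lmFit and eBayes (limma 3.58.1, R 4.3.3), with 9 mutants as groups, 7 residual and 4.68 prior degrees of freedom for units, two-sided, with Benjamini-Hochberg adjustment over all units or windows. Named were the 8 largest rises and 8 largest falls past the threshold with at least 6 probes, the same sign on both arrays and all probes above background in the brighter channel on at least 1 array, and the 8 longest dense rising runs. Replicate numbers did not pair the arrays: deviations of *rrp6Δ* correlated with those of same-numbered arrays between -0.26 and 0.23. The alternatives were background correction, scaling, the summary over probes, slide and replicate blocks, unit and run definitions, and leaving out an array. The ratios without the step that sets them to 0, and the omission of those probes, were added after seeing the data. Precision is set by the number of arrays and, for dim probes, by how far they lie above background. Python 3.11.15 was used with numpy 2.4.6 and pandas 2.3.3.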

Additional observations from a re-analysis of the deposited data

Results flagged for a closer look

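In 7 of the 16 named sense units, the limma contrast between *rrp6Δ* and *red1Δ* passed an adjusted p of 0.05 over all 4071 units (2 arrays of each mutant). As these units were chosen for extreme *rrp6Δ* ratios, which the contrast uses again, this count is a description and no evidence that the mutants differ. Over all units, 454 were higher (11.2%) and 330 lower (8.11%) in *rrp6Δ* than in *red1Δ*. *rrp6Δ* exceeded *red1Δ* by 4.82 (log2) in the unit of probes 115040 to 115054 (adjusted p = 4.1e-06), by 4.24 in that of probes 107330 to 107346 (adjusted p = 4.4e-05), by 3.64 in that of probes 173794 to 173804 (adjusted p = 4.1e-06) and by 2.21 in that of probes 102155 to 102165 (adjusted p = 4.4e-05). In the unit of probes 43698 to 43708 both mutants were below their controls and the difference was 0.82 (adjusted p = 0.0123). It was -1.36 for the unit of probes 95307 to 95319 (adjusted p = 0.0044) and -1.62 for that of probes 44029 to 44055 (adjusted p = 0.0148). The 2 mutants had different control strains, and the part of these strains in the differences was not tested.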

How the results depend on the processing

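All 16 named units kept their direction under each of the 14 alternatives run on them. With both *rrp6Δ* arrays in the fit, each also kept an adjusted p under 0.05 (limma). Their size was not kept, as normexp reduced it in all 16 units, rises and falls alike. For the summary results, 88 of 121 alternatives gave a like value, 31 moved it and 2 reversed it. These counts hold no centring and the median of all probes at 0 as separate alternatives, although they gave the same values. With no centring, or the median of all probes at 0, 595 sense units were higher and 1518 lower, and 5968 windows were lower. With normexp and the array median at 0, these were 529, 1673 and 5472, dim minus bright was 0.61, short minus long reversed to 0.060, and there were 1097 rising runs. All 595 higher units were among the 986. Normexp with loess gave 1078 runs. The requirement of a 2-fold change left 274 higher and 152 lower units, and 4964 and 587 windows. Leaving out an *rrp6Δ* array gave 512 to 711 higher and 359 to 498 lower units, 7622 to 8410 higher and 1733 to 2099 lower windows, a dim minus bright of 0.18 to 0.23, a short minus long of -0.14 to -0.024, 2465 to 2495 runs and a median run of 10 to 11 probes. The lone array was then assumed to vary like the other groups. The median over probes moved dim minus bright to 0.24, and a unit threshold 1 log2 unit lower moved it to 0.35 and reversed short minus long to 0.045. Runs at 1.5-fold numbered 3620 with a median of 12 probes, at 3-fold 1230 with 9 probes, and with at least 10 probes 949. Joining runs less than 4 probes apart gave a median of 12 probes. Against *red1Δ* alone, 330 units were lower. Except where fewer arrays or a stricter rule set the count, the cause was not tested. With the replicate number as a block, 1006 units were higher and 869 lower, and it changed no call of the named units. Slide as a fixed block could not be fitted for *rrp6Δ*, and the contrast within 1 slide has no residual degrees of freedom and was not run.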
